A study of Mus musculus with 6 samples.

Results

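Ca2+/calmodulin-dependent protein kinases read calcium signals in neurons, and the NOVA1 and NOVA2 HITS-CLIP clusters in 6 of their genes are described here. HITS-CLIP sequences the RNA fragments that ultraviolet light has fixed to a protein and that its antibody pulls down. Each unique read is a tag, and overlapping tags form a cluster. The genes were Camk2a, Camk2b, Camk2d and Camk2g, which encode the α, β, δ and γ subunits of CaMKII, together with Camk1d and Camk4. A cluster was counted when 1 nt or more of it lay within the GENCODE vM1 span of such a gene (mm9) and its strand matched. This gave 52 of 46579 clusters, 17 of 9988 in the NOVA1 list and 35 of 36591 in the NOVA2 list. None of the 52 clusters touched a second annotated gene of its strand, and 0 clusters of the opposite strand lay in the 6 spans.

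Both lists came from wild-type cortex of CD1 mice at embryonic day 18.5, with 3 libraries for each protein and no treatment. The tissue was whole cortex, so the tags come from a mixture of cells. The authors pooled the tags over the libraries of a protein and kept clusters with at least 10 tags, so the lists hold no value per replicate, and single libraries were not analysed here. Intervals below are 95% intervals and cover counting error only. Clusters do not stand in for replicates, so the spread between libraries is unknown for every difference given here. All listed clusters held 304703 NOVA1 and 1309270 NOVA2 tags, and tag counts were not scaled to this 4.30-fold difference unless stated. NOVA1 clusters lay in 4 and NOVA2 clusters in 5 of 6 marker genes of cortical projection neurons. None lay in the markers of oligodendrocytes (3 genes), microglia (2 genes) or endothelium (2 genes). Of all protein-coding genes, 12.7% held a NOVA1 cluster, 22.7% a NOVA2 cluster and 76.4% neither, so an empty marker gene says little. Of 3 astrocyte markers, Slc1a3 held 5 clusters in each list, and of 2 red blood cell markers Hbb-b1 held a NOVA1 cluster of 33 tags.

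CaMKII is a holoenzyme of many subunits in which the catalytic and regulatory parts are joined to an association domain by a variable linker. The linker is encoded by alternative exons and differs between isoforms. CaMKII is abundant at excitatory synapses and is known for its part in synaptic plasticity. Camk1d encodes CaMKIδ and Camk4 encodes CaMKIV, kinases that an upstream CaM kinase kinase activates, and CaMKIV is known as a nuclear kinase that phosphorylates the transcription factor CREB. NOVA1 and NOVA2 are neuronal splicing regulators that bind YCAY (Y is C or U), and binding close to alternative exons is where they are known to act on splicing.

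Windows of 30 bases were taken from 8 intron clusters on which the results below turn, each at the densest run of YCAY in the cluster. They are shown 5′ to 3′ in DNA letters on the transcribed strand, from the NCBIM37 (mm9) genome, with every YCAY in capitals. In these letters a YCAY is TCAT or the same motif with C in place of T at its first base, its last base or both. The first 3 lie beside alternative exons of Camk2d, the next 2 are the NOVA2 clusters of highest tag count in Camk2b, and the last 3 are the intron clusters of Camk1d found in both lists.
Camk2d, 19 nt past exon 14, chr3:126508869-126508898, plus strand: gcactgtttgctgttgtttctctcttTCAC
Camk2d, 190 nt past exon 14, chr3:126509051-126509080, plus strand: gagccttcTCATtTCATtgtggaacaTCAT
Camk2d, 721 nt past exon 15, chr3:126511888-126511917, plus strand: atactgtgtTCATaccaacacTCACatgtc
Camk2b, intron 1, 74 NOVA2 tags, chr11:5933648-5933677, minus strand: atagcatctgcacgggTCATcTCATtTCAC
Camk2b, intron 1, 54 NOVA2 tags, chr11:5944322-5944351, minus strand: tggtCCATcTCACctaagttatcaaaCCAT
Camk1d, intron 1, chr2:5577205-5577234, minus strand: gccaatTCATTCATTCATTCATTCATTCAT
Camk1d, intron 3, chr2:5356490-5356519, minus strand: aTCATcTCATTCATTCATTCATTCATTCAC
Camk1d, intron 3, 482 NOVA1 tags, chr2:5300336-5300365, minus strand: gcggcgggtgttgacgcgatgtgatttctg
Exon and intron numbers are those of the coding transcript with the longest coding sequence. Distances past an exon are those of the NOVA1 cluster. The window itself starts at the cluster's first base or further from the exon, as its coordinates show. The last window holds no YCAY and was taken at the middle of its cluster.

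The genes differed in which protein was listed and in where the clusters lay. Clusters and tags were not set against the amount of each gene's RNA in this cortex. Whether differences between genes follow that amount was therefore not tested. Camk2d held 7 NOVA1 and 10 NOVA2 clusters, Camk1d 4 and 8, Camk4 4 and 7, and Camk2a 2 and 1. Camk2b held 9 NOVA2 clusters and no NOVA1 cluster. Camk2g held none in either list. For comparison, 12.7% of 22380 protein-coding genes held a NOVA1 cluster and 22.7% a NOVA2 cluster, with a median of 2 clusters in a gene that had any.

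**Figure D1:**
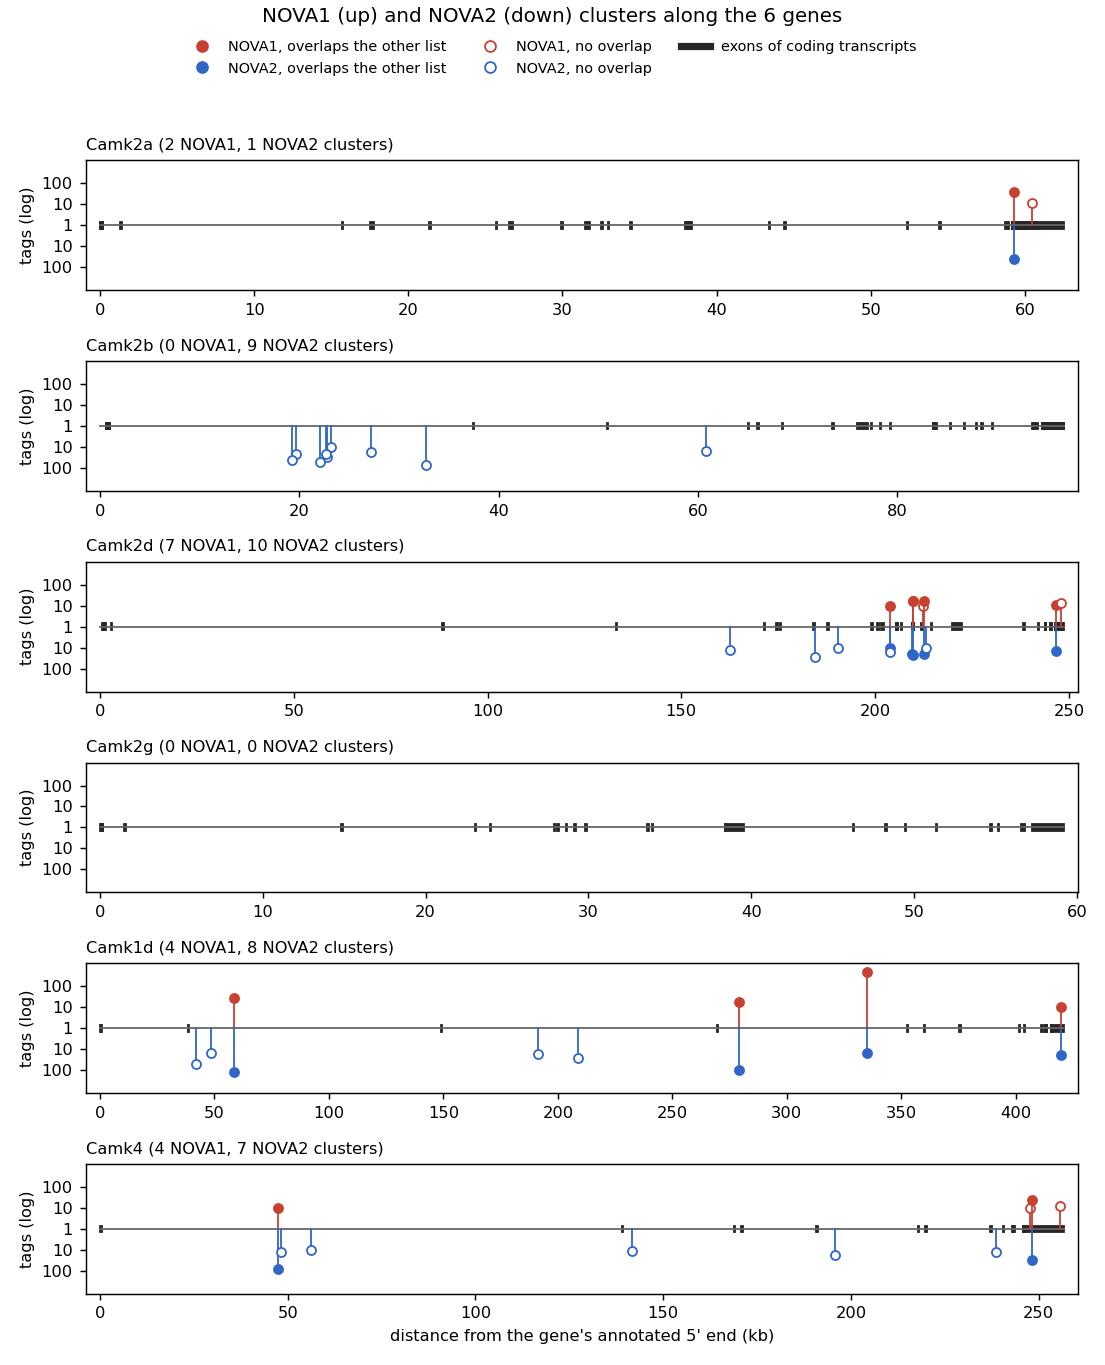
Clusters along the 6 genes, with distance from the annotated 5′ end in kb on the x axis and tags on a log axis, NOVA1 upward and NOVA2 downward. Filled points overlap a cluster of the other list, and black boxes are exons of coding transcripts. Camk2b carries only NOVA2 points, all in introns, Camk2a only points in its 3′ UTR, and Camk2g none.

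Camk2a encodes the α subunit, a principal subunit in forebrain neurons, and its clusters lay in the 3′ UTR alone. The amount of its RNA in this embryonic cortex was not examined. The gene (chromosome 18, 61085272 to 61147806, plus strand) is 62.5 kb long, and introns make up 90.8% of it. The higher NOVA1 cluster (61144505 to 61144682) had 40 tags and overlapped the NOVA2 cluster (61144550 to 61144614), which had 42 tags. A further NOVA1 cluster of 11 tags (61145658 to 61145783) had no NOVA2 overlap. The counts at the shared position were thus nearly equal in lists that differ 4.30-fold in tags. Scaled to list totals, the log2 ratio of NOVA1 to NOVA2 was 2.03 (1.37 to 2.69) there, and with all unique tags as the base it was 1.28 (0.62 to 1.94). The unscaled log2 ratio of -0.07 lay within the quartiles of all 3′ UTR pairs (-1.0 and 0.22). The NOVA2 cluster held 80.6 YCAY per 1000 positions, the highest value among the 3′ UTR clusters.

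Camk2b encodes the β subunit, which binds actin, and was listed for NOVA2 alone. Its 9 clusters held 292 tags, more than 84.6% of the 5076 protein-coding genes with a NOVA2 cluster. All lay in introns, none within 500 nt of an exon. Of these, 8 lay in intron 1 (36.5 kb), within a stretch of 13.7 kb (chromosome 11, 5933617 to 5947270, minus strand). They had 74, 17, 10, 32, 23, 54, 22 and 44 tags in the order of their coordinates. The highest (5933617 to 5933684) lay 4653 nt upstream of exon 2, and the next highest (5944165 to 5944408) 15201 nt upstream. The remaining cluster (5905503 to 5905619), in intron 3, had 16 tags. The 7 coding exons of this gene that a coding transcript skips lay at least 15532 nt from any cluster.

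The lack of a NOVA1 cluster in Camk2b can be read against other genes. Of all protein-coding genes with a NOVA2 cluster, 47.7% had no NOVA1 cluster. Among the 806 with at least 9 NOVA2 clusters, 73 (9.06%) held no NOVA1 cluster. Of 2315 NOVA2 intron clusters in the whole list with at least 74 tags, 25.5% had no NOVA1 overlap. A NOVA1 cluster below 10 tags would not be listed, so 0 listed clusters is no statement about binding below that level.

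Camk2d encodes the δ subunit, which is widely expressed and whose linker isoforms differ in their place in the cell, and it was the only member with intron clusters close to alternative exons. The gene (chromosome 3, 126299220 to 126547972, plus strand) is 249 kb long, and its clusters began 163 kb into it. Exon 14 (126508775 to 126508834) and exon 15 (126511126 to 126511167) are 60 and 42 nt long, both multiples of 3. Of 14 annotated coding transcripts, 5 contain exon 14, 1 contains a shorter form of it and 8 skip it, and 6 contain exon 15 and 8 skip it. Within 3.59 kb here (126508827 to 126512415), each list had 4 clusters, with 59 NOVA1 and 73 NOVA2 tags.

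The first pair began at the end of exon 14. Its NOVA1 cluster (126508853 to 126508913, 16 tags) lay 19 nt downstream, and its NOVA2 cluster (126508827 to 126508918, 20 tags) reached into the exon. The second pair lay 190 nt downstream of exon 14 for NOVA1 (126509024 to 126509139, 17 tags) and 198 nt downstream for NOVA2 (126509032 to 126509125, 23 tags). Their windows are the first printed above. Another pair lay past exon 15, at 721 nt for NOVA1 (126511888 to 126511953, 16 tags) and 691 nt for NOVA2 (126511858 to 126511962, 20 tags). Between exon 15 and this pair was a NOVA1 cluster without NOVA2 overlap, 390 nt from the exon (126511557 to 126511696, 10 tags), the only unshared NOVA1 intron cluster among the 6 genes. A NOVA2 cluster without NOVA1 overlap (126512332 to 126512415, 10 tags) lay further downstream, 1142 nt before exon 16.

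**Figure D2:**
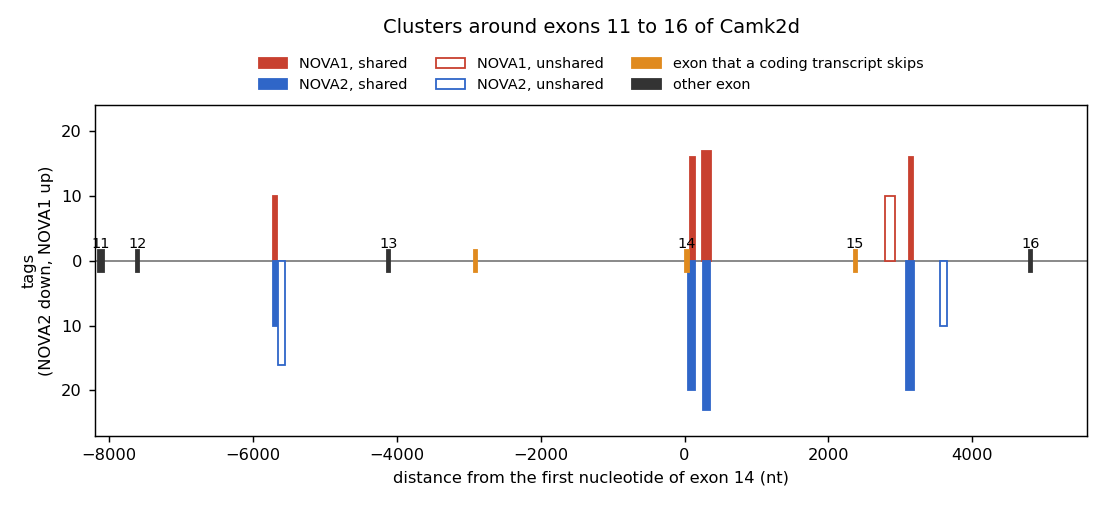
NOVA1 (up) and NOVA2 (down) clusters of Camk2d, with distance in nt from the first nucleotide of exon 14 on the x axis and tags on the y axis. Filled bars are shared and open bars unshared, orange boxes are exons that a coding transcript skips (widened to be visible), and numbers are exon numbers, which the orange exon absent from the numbered transcript lacks. The bars past exons 14 and 15 have 10 to 23 tags in both lists.

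Such positions were a small part of either list. Within 500 nt of a coding exon that some coding transcript skips lay 3.58% of all NOVA1 and 2.35% of all NOVA2 intron clusters. In Camk2d this held for 3 of 5 NOVA1 and 2 of 9 NOVA2 intron clusters, and in the other members for none. Camk2a and Camk2g had no intron cluster and Camk4 no such exon, so only Camk2b and Camk1d could have differed. Camk2d has 9 such exons, Camk2b 7 and Camk1d 2, where forms with different ends count separately. In Camk2d, exons 14 and 20 are each counted more than once for this reason. Within 500 nt of any exon were 3 of 9 NOVA1 intron clusters of the 6 genes (33.3%, 12.1 to 64.6) and 3 of 31 NOVA2 intron clusters (9.68%, 3.35 to 24.9). The whole-list shares were 12.3% and 10.3%. The only one of these clusters not beside a skipped exon was a NOVA2 cluster of 27 tags, 278 nt downstream of exon 7 (126483658 to 126483782), the highest in Camk2d. Exon 7 is in 11 coding transcripts and skipped by none.

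The remaining Camk2d intron clusters lay upstream of these exons. At 126503054 to 126503105, in intron 12, both lists gave the same boundaries and 10 tags each. A NOVA2 cluster of 16 tags (126503121 to 126503217) followed it after 15 nt. NOVA2 clusters of 13 tags (126461818 to 126461863) and 10 tags (126489603 to 126489749) lay in introns 4 and 8. In the 3′ UTR a pair had 11 NOVA1 (126545797 to 126545899) and 15 NOVA2 tags (126545725 to 126545896), and a NOVA1 cluster of 13 tags (126547248 to 126547381) had no NOVA2 overlap. No cluster of Camk2d exceeded 27 tags in either list.

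Shared intron positions with so few NOVA2 tags were rare in the list. The shared NOVA2 intron clusters of Camk2d had 10 to 23 tags. In this range, which these pairs themselves set, 2.87% of 17248 NOVA2 intron clusters overlapped a NOVA1 cluster, and in Camk2d 4 of 8 did. The range holds every shared intron cluster of Camk2d by construction and leaves out its unshared one of 27 tags. These shares are therefore not a test of Camk2d. The 4 pairs had log2 ratios of NOVA1 to NOVA2 tags, unscaled, from -0.44 to 0.0. In 404 intron pairs of the whole list with the same range of NOVA2 tags the median was -0.46 (quartiles -0.81 and -0.13), so the ratios themselves lay within or just above the usual range for pairs of this height. A pair needs at least 10 NOVA1 tags to be listed, which keeps ratios at low NOVA2 counts high.

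Camk2g encodes the γ subunit and held no cluster. It spans 59.2 kb (chromosome 14, 21554097 to 21613310, minus strand), of which introns make up 91.9%. No cluster was gained when the span was extended by 10 kb downstream. No cluster was found in either list for 76.4% of protein-coding genes. How much Camk2g RNA this cortex holds was not tested, so the lack of clusters is no statement about binding to it.

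Camk1d, the longest gene of the 6 at 421 kb (chromosome 2, 5214503 to 5635561, minus strand), held the clusters of highest tag count in both lists. All 4 NOVA1 clusters were shared. In intron 1, the NOVA2 cluster at 5577165 to 5577284 had 129 tags and its NOVA1 partner (5577159 to 5577284) had 27. In intron 3, the NOVA2 cluster at 5356432 to 5356533 had 101 tags and its NOVA1 partner (5356445 to 5356533) had 17. Scaled to list totals, the log2 ratios of NOVA1 to NOVA2 were -0.15 (-0.81 to 0.45) and -0.47 (-1.30 to 0.28), so the NOVA2 excess was no larger than the counting error after scaling. With all unique tags as the base they were -0.91 (-1.56 to -0.30) and -1.22 (-2.06 to -0.47). Both windows printed above consist largely of the repeated unit TTCA, with 6 and 7 YCAY in 30 bases. These clusters lay 19676 and 9583 nt downstream of the nearest exon, each of which a coding transcript skips. The NOVA1 cluster in intron 3 has 9 further copies in the genome, the other clusters of these positions 0.

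The remaining shared intron position had far more NOVA1 than NOVA2 tags. The NOVA1 cluster at 5300286 to 5300415 had 482 tags, and the NOVA2 cluster at 5300312 to 5300392 had 16. Neither contains a YCAY, and 0.671% of all NOVA1 and 0.410% of all NOVA2 intron clusters are without one. Its log2 ratio of 4.91 was reached by 2 of 3452 intron pairs in the whole list, this pair among them. Its sequence has 7 further copies in the genome, at 92.4% to 98.9% identity over at least 50% of the cluster. Of these copies, 1 held a NOVA1 cluster (chromosome 3, 5860319 to 5860430, 122 tags) and none a NOVA2 cluster. How tags were placed among the copies was not tested, and the sequence was not compared with ribosomal RNA, for which no reference was used here. The assignment of these tags to Camk1d is therefore uncertain.

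Without NOVA1 overlap, Camk1d had NOVA2 clusters of 50 tags (5593378 to 5593587) and 16 tags (5587097 to 5587188) in intron 1 and of 27 tags (5426713 to 5426810) and 17 tags (5444350 to 5444424) in intron 2. The clusters of 16 and 17 tags have 2711 and 43 further copies, the others 0. In the 3′ UTR a pair had 10 NOVA1 (5215943 to 5216004) and 20 NOVA2 tags (5215944 to 5216071). The NOVA1 cluster there holds no YCAY and the NOVA2 cluster a single one.

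Camk4 (chromosome 18, 33098695 to 33355421, plus strand, 257 kb) showed NOVA2 in introns and NOVA1 mostly in the 3′ UTR. The highest cluster was NOVA2 in intron 1 (33146044 to 33146123) with 85 tags, and it overlapped a NOVA1 cluster of 10 tags (33146060 to 33146107). It lay 46846 nt from exon 1, and its sequence has 4 further copies. The other 5 NOVA2 intron clusters had 10 to 18 tags and no NOVA1 overlap. In the 3′ UTR, 24 NOVA1 tags (33346872 to 33347067) met 29 NOVA2 tags (33346971 to 33347066). NOVA1 clusters of 10 tags (33346315 to 33346396) and 12 tags (33354280 to 33354393) there had no NOVA2 overlap. The annotation gives no coding exon of Camk4 that a coding transcript skips.

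Over the 6 genes the clusters marked 40 positions, of which 12 were in both lists, 5 in the NOVA1 list alone and 23 in the NOVA2 list alone. Shared were 12 of 17 NOVA1 clusters (70.6%, 46.9 to 86.7) and 12 of 35 NOVA2 clusters (34.3%, 20.8 to 50.8). The whole lists gave 80.1% and 22.1%, both within these intervals. All 23 unshared NOVA2 clusters were in introns, where 82.3% of all unshared NOVA2 clusters lay, with 5.50% in 3′ UTRs. Of the 5 unshared NOVA1 clusters 4 were in 3′ UTRs and 1 in an intron, against 49.4% and 9.11% of all unshared NOVA1 clusters. These whole-list shares include clusters outside gene spans, which could not be counted here, so they are lower in part by construction.

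Introns held 9 of 17 NOVA1 clusters (52.9%, 31.0 to 73.8) and 31 of 35 NOVA2 clusters (88.6%, 74.0 to 95.5), against 40.3% and 74.6% of the whole lists. The other 8 NOVA1 and 4 NOVA2 clusters were in 3′ UTRs, which held 37.7% and 12.1% of the whole lists. Coding sequence held none, compared with 8.65% of all NOVA1 and 1.47% of all NOVA2 clusters. Of the 8 NOVA1 clusters in 3′ UTRs 4 were shared, and all 4 NOVA2 clusters in 3′ UTRs were shared. The whole-list shares were 73.9% and 64.5%. In introns 8 of 9 NOVA1 and 8 of 31 NOVA2 clusters were shared, against 95.5% and 14.1%.

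**Figure D3:**
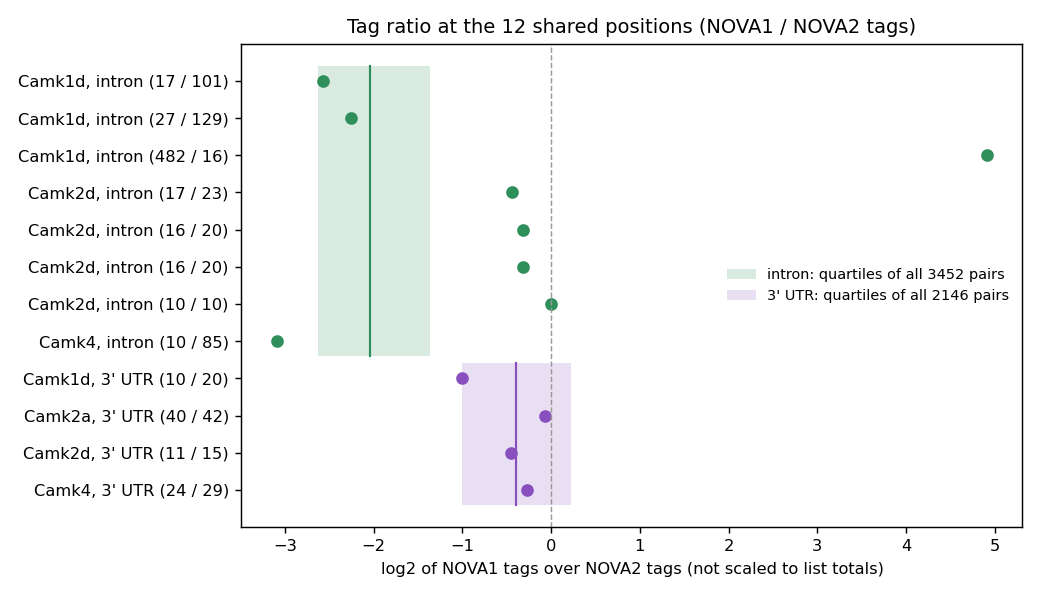
Log2 ratio of NOVA1 to NOVA2 tags, not scaled to list totals, at the 12 shared positions, with tags of NOVA1 and NOVA2 in parentheses. Bands and lines are the quartiles and medians of all intron pairs (median -2.04) and all 3′ UTR pairs (median -0.40). The 4 positions in 3′ UTRs lie between -1.0 and -0.07, and the intron positions spread from -3.09 to 4.91.

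At the 12 shared positions the median of the unscaled log2 ratios was -0.38, and that of the 6770 uniquely paired clusters of the whole lists was -1.34. In 3′ UTRs the 4 positions had a median of -0.36, close to -0.40 over 2146 pairs. In introns the members ranged from -3.09 in Camk4 to 4.91 in Camk1d, and the list had a median of -2.04 (quartiles -2.63 and -1.36). The 4 intron positions of Camk2d were above its upper quartile. This was fixed in advance, since they have at most 23 NOVA2 tags and a listed NOVA1 cluster at least 10. Among intron pairs with 10 to 23 NOVA2 tags the median was -0.46 (quartiles -0.81 and -0.13). The 3 positions with 85 or more NOVA2 tags in Camk1d and Camk4 were below the median of all intron pairs. They are grouped by their NOVA2 count, which itself lowers the ratio, and pairs of like height were not examined for them. The 482-tag cluster of Camk1d had the highest ratio of the 12 positions.

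In Camk1d the sum over the gene depended on this cluster. The gene had 536 NOVA1 and 376 NOVA2 tags, a log2 ratio scaled to list totals of 2.61 (2.42 to 2.81). Without the NOVA1 cluster of 482 tags it was -0.70 (-1.14 to -0.28), so the direction turned. In Camk2d, with 93 NOVA1 and 164 NOVA2 tags, the scaled log2 ratio was 1.28 (0.90 to 1.66), and in Camk2a, with 51 and 42 tags, it was 2.38 (1.77 to 3.01). In Camk4, with 56 and 179 tags, it was 0.43 (-0.03 to 0.87), an interval that includes 0. With all unique tags of each protein, as totalled by the study, as the base, the log2 ratios were lower, at 1.86 in Camk1d, 0.53 in Camk2d and 1.63 in Camk2a, and that of Camk4 turned to -0.33. Clusters below 10 tags are missing from each sum. A scaled log2 ratio of 0 means equal shares of all listed tags, and no distribution of such sums over other genes is given here. Of the 36591 NOVA2 clusters behind these totals, 28512 had no NOVA1 overlap. A ratio of 0 therefore need not be usual for genes with listed NOVA1 clusters, and values above it are not read as NOVA1 enrichment. The clusters of Camk2a lay in the 3′ UTR alone, where the unscaled ratios of whole-list pairs were higher (median -0.40) than in introns (-2.04).

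YCAY was denser in the clusters than beside them. NOVA1 clusters of the 6 genes held 35.0 YCAY per 1000 positions and flanks 200 to 500 nt away 18.1, a 1.93-fold difference (1.42 to 2.59). For NOVA2 the rates were 46.6 and 18.6, a 2.51-fold difference (2.09 to 3.0). The folds over the whole lists were 2.02 and 2.29. Overlapping motifs were counted separately, on the transcribed strand only. Of the 17 NOVA1 clusters 15 held a YCAY, and of the 35 NOVA2 clusters 34 did. In the whole lists 1.94% and 0.686% held none.

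**Figure D4:**
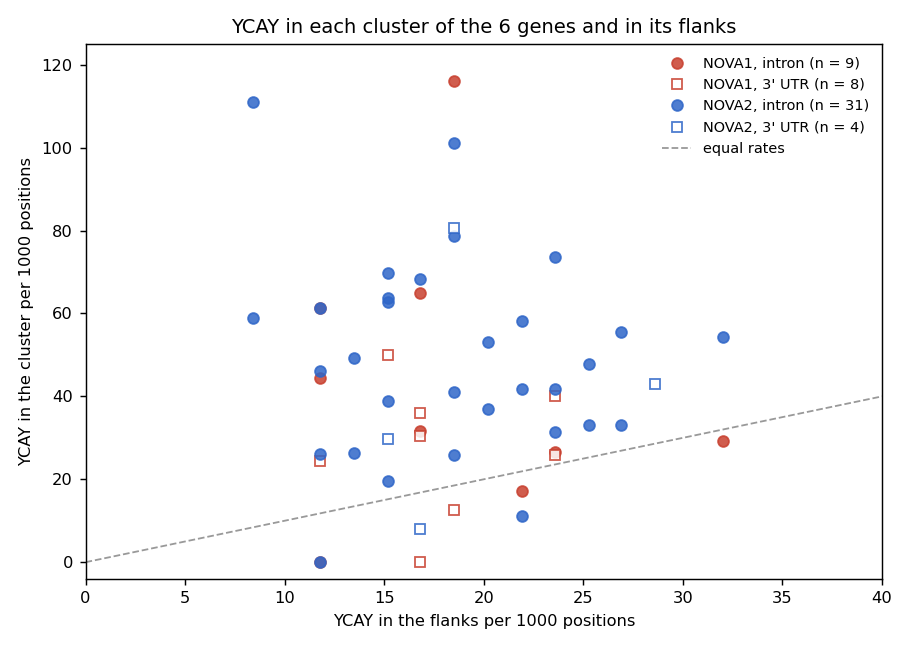
YCAY per 1000 positions in each cluster of the 6 genes (y axis) and in its flanks 200 to 500 nt away (x axis), for NOVA1 (red) and NOVA2 (blue) in introns (filled) and 3′ UTRs (open). The dashed line marks equal rates. Cluster values range from 0 to 116, and the highest 3, 116, 111 and 101, belong to Camk1d.

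The density varied between members. In introns it was 41.2 per 1000 positions for NOVA1 and 48.3 for NOVA2, and intron sequence of the 6 genes outside clusters held 17.2. In 3′ UTRs it was 29.9 and 33.4. The highest values were 116 and 101 for the NOVA1 and NOVA2 clusters at the TTCA repeat in intron 3 of Camk1d and 111 for the NOVA2 cluster of 17 tags in its intron 2. The 8 clusters past exons 14 and 15 of Camk2d ranged from 11.2 to 37.0. The NOVA1 and NOVA2 clusters nearest exon 14 held 17.2 and 11.2, below their flanks at 21.9, with a single YCAY each. The next pair held 26.5 and 33.0, against 23.6 and 25.3 in the flanks.

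Other genes of calcium/calmodulin kinase signalling were counted for comparison. Of 15 such genes, 6 had clusters in both lists, 1 in the NOVA2 list alone, 1 in the NOVA1 list alone and 7 in neither, with 31 NOVA1 and 91 NOVA2 clusters in all. Among all protein-coding genes 12.7% had a NOVA1 cluster, 22.7% a NOVA2 cluster and 76.4% none in either list. Dclk1, a doublecortin-like kinase that binds microtubules, had 20 NOVA1 clusters (656 tags) and 44 NOVA2 clusters (1999 tags). Cask, a synaptic scaffold with a CaM kinase-like domain, had 4 (99 tags) and 33 (736 tags). Dclk2 had 1 (10 tags) and 6 (168 tags), all in introns. Calm2 had 1 cluster in each list (30 NOVA1 and 22 NOVA2 tags) and Calm3 1 NOVA1 cluster (10 tags), all in 3′ UTRs. Camk2n2, which encodes a CaMKII inhibitor, had 3 NOVA1 and 2 NOVA2 clusters, also all in 3′ UTRs, and Camk2n1 had none. Of the kinase kinases, Camkk2 had a NOVA2 intron cluster of 19 tags and Camkk1 none. Creb1, whose product CaMKIV phosphorylates, had 1 NOVA1 cluster in the 3′ UTR (10 tags) and 4 NOVA2 clusters in introns (68 tags). Camk1, Pnck, Camk1g, Camkv and Dclk3 had none.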

How the data were processed

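HITS-CLIP for NOVA1 and NOVA2 had been carried out on 3 libraries per protein from wild-type CD1 mouse cortex at embryonic day 18.5. The authors aligned the tags to mm9 with novoalign (version not given in the sources used here), removed PCR duplicates and kept clusters with tags in at least 2 libraries. The deposited lists give tag counts per cluster, pooled by the authors, unscaled and at least 10. The study names the minimum a peak height, so the count may be the tags at a cluster's peak and not all its tags. With a fixed minimum, the protein with more tags can list weaker sites.

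Here cluster ends were compared with the NCBIM37 chromosomes (0 past an end) and positions are 1-based. Each cluster took the GENCODE vM1 class covering most of its nucleotides, coding sequence taking precedence over UTRs, and UTRs over introns, at each nucleotide. Transcripts annotated as retained introns were left out. A cluster counted as shared when 1 nt or more of it, on its own strand, lay in a cluster of the other protein. Shares carry Wilson intervals, and ratios exact conditional binomial intervals. Alternatives to the median ratio were read against an order-statistic interval over positions. Further copies were BLAST+ 2.17.0 matches elsewhere with 90% identity or more that covered 50% of a cluster or more. A skipped exon is a coding exon lying inside an intron of another coding transcript. Python 3.11.15, NumPy 2.4.6, pandas 2.3.3, SciPy 1.17.1 and Matplotlib 3.10.9 were used, and the functions were tested on simulated data. A further gene of the signalling list is not reported here. The genes, the gene lists and the tests were chosen with earlier results of these data known. Described are all clusters of a gene and list with 5 or fewer, otherwise the 3 highest, the highest unshared and those within 500 nt of a skipped exon, and further clusters chosen after their values were seen.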

Additional observations from a re-analysis of the deposited data

How the results depend on the processing

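Of 49 alternative values for 15 results, 36 stayed within 1.5 times a count or within the 95% interval of a share or ratio, 12 moved outside it and 1 reversed. Leaving out the highest NOVA1 cluster of Camk1d was chosen after seeing the data. It turned that gene's log2 ratio to -0.70 and moved neither the YCAY fold nor the median ratio. At 20 or more tags 4 NOVA1 and 18 NOVA2 clusters remained in the 6 genes, no NOVA1 intron cluster (0%) was within 500 nt of an exon, 16.7% of NOVA2 clusters were shared, and the log2 ratio of Camk4 was -0.14. At 25 or more NOVA2 tags, 12 NOVA2 clusters and a NOVA1 shared share of 29.4% were left. Higher thresholds leave fewer clusters by construction. With all unique tags of each protein as the base, the log2 ratios were 1.63 in Camk2a, 0.53 in Camk2d, 1.86 in Camk1d and -0.33 in Camk4. The highest clusters alone gave 4.0 in Camk1d. Where a value moved otherwise, the cause was not tested. No value was obtained for Camk2d at 20 or more tags, since no NOVA1 cluster was left. No paired analysis was possible because counts in the lists are sums over libraries. Single libraries were not analysed here, so none was left out in turn.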

Other observations

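Genes with the most similar pattern were ranked by Euclidean distance over 4 values, log2(tags + 1) in introns and in exons of both lists, among 5491 genes with a cluster. Camk2b was nearest to Slit3 (distance 0.0), which also had 292 NOVA2 tags in introns and none in the other values, then to Scaper (294 NOVA2 intron tags) and Snx13 (296). Camk4 was nearest to Tmeff1 (0.55), with 12 and 39 NOVA1 tags in introns and exons and 113 and 26 NOVA2 tags, then to Slco5a1 (0.57). Camk2d was nearest to Dlg3 (1.18), with 38 and 20 NOVA1 tags and 221 and 10 NOVA2 tags. Camk1d had no close neighbour, the nearest being Fam19a5 at 2.26, with 200 NOVA1 and 900 NOVA2 tags in introns. Of the 526 NOVA1 intron tags of Camk1d, 482 came from the cluster whose assignment to this gene is uncertain. Its distances without that cluster were not tested. Only 4 values enter each distance.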
